A study of Mus musculus with 4 samples.

Results

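The acetylation of histone tails is set by acetyltransferases, the writers, and removed by deacetylases, the erasers, which act mostly as subunits of corepressor complexes. The levels of 32 genes of this system, 6 writers, 18 erasers and 8 corepressor genes, were followed in mouse embryonic stem (ES) cells after knockdown of Atad2, an AAA ATPase whose bromodomain binds acetylated histones. The genes were taken from a list of names that was chosen with earlier results of these data known. In all, 21927 genes had a summed level. The writers were the MYST family acetyltransferases Kat5, Kat6a, Kat6b, Kat7 and Kat8 and the type B enzyme Hat1. The erasers were the 11 zinc-dependent deacetylases of classes I, IIa, IIb and IV and the 7 NAD-dependent sirtuins. The corepressor genes were the scaffolds Ncor1, Sin3a, Sin3b and Rcor1 and the Sin3 complex subunits Sap18, Sap30, Ing1 and Ing2.

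MYST enzymes acetylate nucleosomal histones at genes and replication origins, each with its own scaffold and reader subunits, whereas Hat1 acetylates newly made H4 before it is deposited on DNA. Among the erasers, Hdac1 and Hdac2 are the catalytic subunits of the Sin3, NuRD and CoREST complexes and Hdac3 is that of the complex built on Ncor1. Class IIa deacetylases shuttle between nucleus and cytoplasm, Hdac6 is largely a cytoplasmic tubulin deacetylase, and the sirtuins are divided between the nucleus (Sirt1, Sirt6 and Sirt7), the cytoplasm (Sirt2) and the mitochondrion (Sirt3, Sirt4 and Sirt5). ES cell chromatin is known for being open and rich in acetylation.

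The cells were of the 46C mouse ES line. All 4 libraries came from cells that carried the TAP tag on the endogenous Atad2, from 1 recombinant clone, and that were grown with LIF on gelatin. A pair of libraries came from cells given an inactive scrambled siRNA (si-ctrl 1 and 2) and another pair from cells given an active siRNA against Atad2 (si-Atad2 1 and 2). The labels call the libraries of a condition replicates, while the study describes 2 active siRNAs and repeat sequencing of each RNA. Which siRNA each library received is not given in the sources used here, and p-values then measure only the spread between these libraries, which may be technical. Cuffdiff had been run 2 times by the authors, each time on 1 library of either condition, and these runs are named pair 1 and pair 2. Levels are in fragments per kilobase of transcript, normalised to the fragments of the library (FPKM), and were summed over the transcripts of a gene of at least 200 bases. The change on knockdown is given as log2 of (FPKM + 1) for si-Atad2 less that for si-ctrl within a pair. The added 1 FPKM shrinks the change of genes of low level. The runs were scaled separately, so levels of different pairs are set side by side as a description.

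Atad2 itself stood at 34.1 and 36.0 FPKM in si-ctrl 1 and 2. After knockdown 10.1 and 13.0 FPKM were left, or 29.6% and 36.2% of the control of the same pair. The mean log2 ratio of Atad2 was -1.53 (SE 0.076, n = 2 pairs; adjusted p = 5.7e-07 by limma with Benjamini-Hochberg adjustment). The 8 ES cell markers, Pou5f1 and Nanog among them, lay between 62.9 and 1013 FPKM in every library. The 16 markers of endoderm, mesoderm, neural cells and trophoblast lay between 0.035 and 3.78 FPKM. Of the 5 fibroblast markers the highest value was 6.75 FPKM, for Thy1, while Dcn and S100a4 stayed under 0.1 FPKM. The summed level of the ES cell markers was 3232 and 3055 FPKM in pair 1 and 3282 and 3077 FPKM in pair 2, si-ctrl first. The tables hold no read counts, so the depth is unknown. The authors' 95% intervals, combined over the transcripts of a member, gave a half-width of 1.63% of the level for Hat1, the most precise, and up to 32.5% for Kat8, and they cover counting error only.

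In the si-ctrl libraries, 17 of the 32 members reached 10 FPKM in both, and 28 differed by less than 10% between them. Hat1 was the highest member by far, at 218 and 238 FPKM in si-ctrl 1 and 2, with 228 and 227 FPKM in si-Atad2 1 and 2. The 4 values of Hat1 overlapped between the conditions. Hdac2 followed at 73.6, 75.2, 76.4 and 71.0 FPKM in si-ctrl 1, si-Atad2 1, si-ctrl 2 and si-Atad2 2, the order in which the 4 levels of a gene are given from here on. At the other end were Hdac7, between 1.05 and 1.12 FPKM, and Hdac9, at 1.04, 0.97, 0.85 and 0.81 FPKM, both class IIa deacetylases known from muscle, vessel and lymphoid tissue. The level of Hdac7 is a lower limit, since 2 transcripts at the locus it shares with Slc48a1 could not be given to either gene and held 4.49 FPKM in si-ctrl 1. The highest and the lowest member were 209-fold apart in si-ctrl 1 and 280-fold apart in si-ctrl 2.

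**Figure D1:**
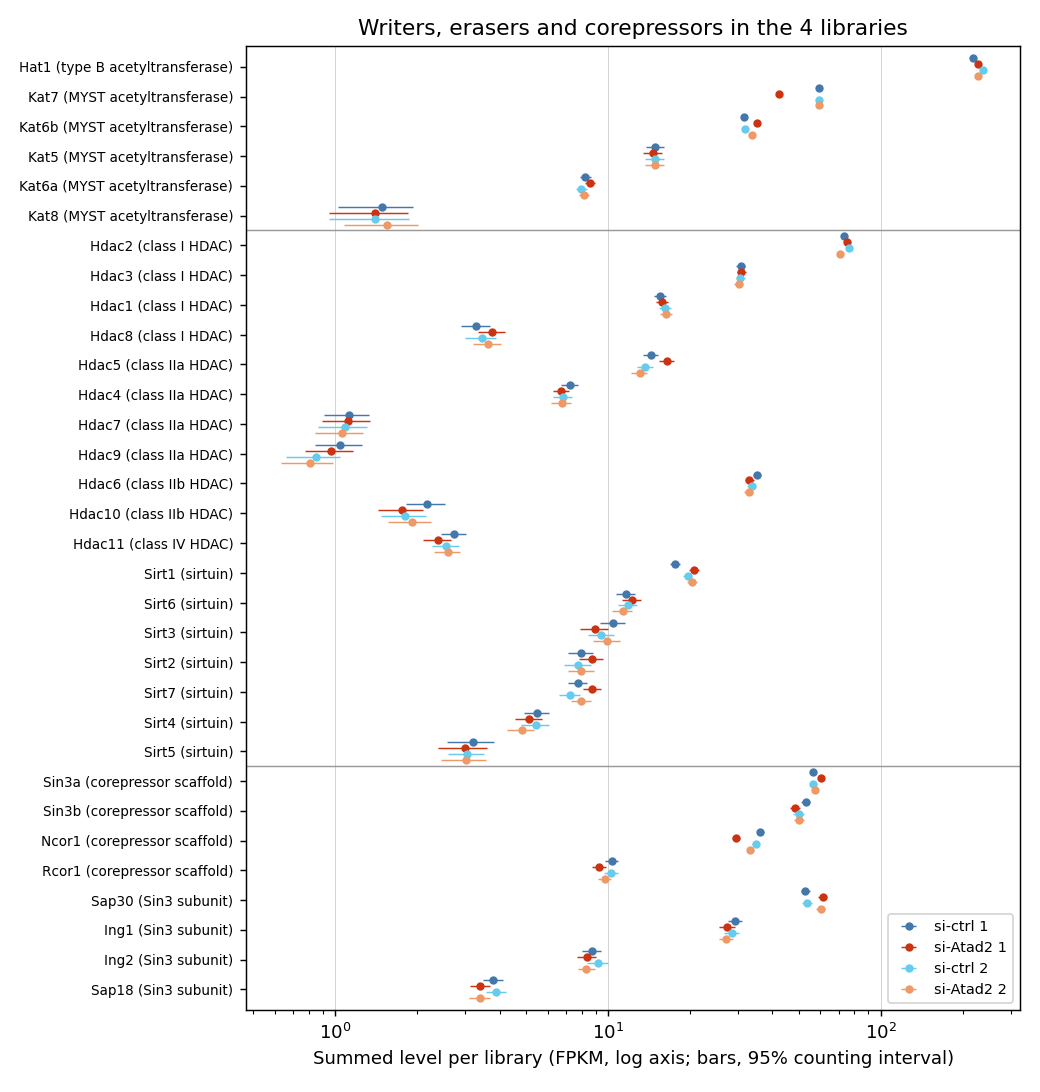
Level of each of the 32 members (rows, with the role in brackets) in each library, in FPKM on a log axis; bars are the half-width of the 95% interval for counting error, combined from the authors' intervals. Hat1 lies above 200 FPKM in every library, Hdac7 and Hdac9 near 1 FPKM, and the 4 libraries of most members fall close together, with Kat7 in si-Atad2 1 as the widest gap among members above 10 FPKM.

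The promoters of members at the ends of this order and of those with the lowest and highest mean ratio are shown for their content in CG dinucleotides, which are capitalised. They are RefSeq sequences of GRCm38.p6, each 5′ to 3′ on the strand of the gene, from 250 bases before to 50 bases after the annotated start. Hat1, chr2:71389010-71389309, plus strand, 32 CG dinucleotides, more than in 90.8% of all promoters listed.
Hat1: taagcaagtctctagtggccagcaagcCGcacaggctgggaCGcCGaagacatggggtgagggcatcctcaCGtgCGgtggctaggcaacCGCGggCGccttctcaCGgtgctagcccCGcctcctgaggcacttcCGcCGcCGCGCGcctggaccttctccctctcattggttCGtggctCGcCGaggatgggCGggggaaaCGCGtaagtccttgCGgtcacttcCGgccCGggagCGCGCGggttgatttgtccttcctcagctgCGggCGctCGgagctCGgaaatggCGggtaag
Sap30, chr8:57487811-57488110, minus strand, holds 22.
Sap30: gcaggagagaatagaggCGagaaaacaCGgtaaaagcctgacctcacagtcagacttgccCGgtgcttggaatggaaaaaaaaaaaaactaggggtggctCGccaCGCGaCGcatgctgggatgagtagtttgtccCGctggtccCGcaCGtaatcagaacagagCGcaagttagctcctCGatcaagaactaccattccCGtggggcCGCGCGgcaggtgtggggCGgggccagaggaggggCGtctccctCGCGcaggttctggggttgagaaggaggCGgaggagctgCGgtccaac
Kat7, chr11:95310197-95310496, minus strand, holds 14.
Kat7: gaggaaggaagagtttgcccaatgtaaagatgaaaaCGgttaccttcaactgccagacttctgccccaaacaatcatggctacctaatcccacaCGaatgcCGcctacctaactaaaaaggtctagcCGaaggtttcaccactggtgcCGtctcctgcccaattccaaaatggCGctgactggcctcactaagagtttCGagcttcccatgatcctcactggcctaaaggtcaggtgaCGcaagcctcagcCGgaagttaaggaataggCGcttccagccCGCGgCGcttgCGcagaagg
Hdac9, chr12:34917046-34917345, minus strand, the first of its 2 listed starts, holds 0, and the other start holds 3.
Hdac9: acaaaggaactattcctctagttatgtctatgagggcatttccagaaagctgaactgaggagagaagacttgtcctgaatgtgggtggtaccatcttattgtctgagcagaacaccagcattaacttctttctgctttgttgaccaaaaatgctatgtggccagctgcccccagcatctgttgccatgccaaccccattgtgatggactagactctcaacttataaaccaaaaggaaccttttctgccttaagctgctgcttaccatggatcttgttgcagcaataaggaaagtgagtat

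Promoters were listed for 28 of the 32 members, those of Hdac1, Hdac3, Hdac10 and Kat6a being absent from the table. Taking the first start of each gene, the median number of CG dinucleotides in 300 bases was 20 over the members and 7 over all 27025 genes, and 25 of the 28 members lay above the latter. Ncor1, Hdac8 and Hdac9 were the exceptions, with 2, 6 and 0. Ncor1 was so only at its first start, since the other one held 36. Conversely, Hdac7 and Kat8 held 31 and 12 at the first start, but each had another start with 5. The promoter of Sirt1 held the most, 47. Members above and below 10 FPKM in si-ctrl had medians of 20 (n = 15) and 17 (n = 13). The letters CCAAT, on either strand, were found in 14 of 28 member promoters (50.0%) against 37.9% of all, and TATAAA in 4 of 28 (14.3%) against 14.2%. The TATAAA matches were in Sin3b, Hdac9, Sap18 and Hdac8. No test was run on these shares, which describe the windows only. The 27025 genes were not limited to those expressed in these cells, whereas 31 of the 32 members had a mean of at least 1 FPKM.

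None of the 31 members tested passed an adjusted p of 0.05 by limma on the pair of ratios, while 278 of all 11079 genes tested did (2.51%; 207 higher and 71 lower after knockdown). Hdac9 was not tested, since its mean was under 1 FPKM. At an unadjusted p under 0.05 there were 3 members, Kat7, Ncor1 and Sap30, against 16.4% of all genes. The adjusted p of the members by limma ran from 0.139 for Sap30 to 0.994 for Hat1. The balance of all changed genes depended on the scaling, with 277 higher and 44 lower under TPM and 137 higher and 25 lower under median of ratios, and no member passed under either. Leaving out si-Atad2 2, with the lone si-Atad2 1 assumed to vary like the si-ctrl libraries, was the only alternative of 19 in which members passed. Then 5 did, Kat7, Ncor1, Sap30, Hdac5 and Sirt7, against 19.1% of all genes. With 2 libraries against 2 and the pairs ignored, a two-sided exact permutation test on a single gene cannot go below 0.333.

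Among the writers, Kat7, the catalytic subunit that acetylates H3 and H4 at origins and genes, had the widest difference. Its level was 59.3, 42.4, 59.5 and 59.5 FPKM. A single library, si-Atad2 1, was low, and the conditions overlapped. In pair 1 the log2 ratio of Kat7 was -0.48 and in pair 2 it was 0.0016, the mean being -0.24 (SE 0.091, adjusted p = 0.205 by limma). The low value in pair 1 was shared by both transcripts listed above 0, which went from 36.7 to 26.5 FPKM and from 22.6 to 15.8 FPKM, against 36.6 to 34.3 FPKM and 22.9 to 25.2 FPKM in pair 2. Kat7 lies on the minus strand of chromosome 11 from 95274259 to 95310246. The ratio of Kat7 to Kat6b, which fits into the same BRPF scaffolds, was 1.88, 1.20, 1.87 and 1.76 in the 4 libraries.

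Kat6b, the MYST enzyme that acetylates H3 with Brpf scaffolds, stood at 31.6, 35.3, 31.8 and 33.8 FPKM, both si-Atad2 libraries above both si-ctrl libraries. Its log2 ratios were 0.16 and 0.089, with a mean of 0.12 (SE 0.064, adjusted p = 0.376 by limma). Its paralog Kat6a was 3.82 to 4.14 times lower in every library, at 8.25, 8.60, 7.99 and 8.17 FPKM. Kat5, the catalytic subunit of the NuA4-type complex, was level at 14.9, 14.6, 14.8 and 14.9 FPKM. Kat8, which acetylates H4 lysine 16, was listed at 1.48, 1.39, 1.40 and 1.54 FPKM. A transcript of 1503 bases at the locus that Kat8 shares with Prss8 could not be given to either gene and held 14.4, 16.9, 14.4 and 15.4 FPKM, so the level of Kat8 is a lower limit. The 6 writers had median log2 ratios of 0.014 (pair 1) and 0.017 (pair 2), beside 0.00032 and -0.016 over all genes tested.

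Among the class I deacetylases, Hdac2 made up 59.8%, 59.9%, 60.3% and 58.7% of the summed level, and Hdac3 a further 24.9%, 24.5%, 24.1% and 24.9%. Hdac3 was among the steadiest members, at 30.7, 30.8, 30.6 and 30.1 FPKM. Hdac1 stood at 15.5, 15.8, 16.2 and 16.3 FPKM, so that Hdac2 exceeded it 4.75, 4.78, 4.72 and 4.36 times. Hdac1 has near copies, Gm10093 with 99.4% identity over 1444 bases, AC125456.1 with 96.3% over 1450 bases and Gm4864 with 94.6% over 1469 bases. How reads that fit both Hdac1 and a copy were counted is not given in the sources used here, so the level of Hdac1 is uncertain. Hdac8, which acts outside the large corepressor complexes, stood at 3.28, 3.76, 3.44 and 3.63 FPKM, with a mean log2 ratio of 0.11 (SE 0.081, adjusted p = 0.562 by limma).

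In class IIa, Hdac5 was at 14.3, 16.4, 13.7 and 13.0 FPKM, its log2 ratio being 0.19 in pair 1 and -0.062 in pair 2 (mean 0.062, and -0.11 with the highest transcript), and Hdac4 at 7.25, 6.74, 6.83 and 6.75 FPKM. The ratio of Hdac5 to Hdac4 was 1.97, 2.44, 2.00 and 1.93. In class IIb, Hdac6 was lower in both si-Atad2 libraries, at 35.3, 32.9, 33.6 and 32.7 FPKM, with a mean log2 ratio of -0.067 (SE 0.064, adjusted p = 0.655 by limma). Hdac10, a polyamine deacetylase, and Hdac11, the class IV enzyme, were lower in pair 1, with log2 ratios of -0.20 and -0.14, and not in pair 2, with 0.049 and 0.013. Hdac10 ran from 1.76 to 2.17 FPKM and Hdac11 from 2.38 to 2.73 FPKM. Gm44002 matches Hdac11 over 594 bases with 100% identity, which leaves its level uncertain. Hdac7 had log2 ratios of -0.0025 and -0.021.

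Among the sirtuins, Sirt1, which deacetylates histones and p53, had the highest summed level, 17.6, 20.6, 19.6 and 20.3 FPKM, with log2 ratios of 0.22 and 0.051. Both si-Atad2 libraries were above both si-ctrl libraries, although the si-ctrl libraries differed by 0.14 on the same scale. Sirt7, a nucleolar H3 lysine 18 deacetylase, stood at 7.77, 8.74, 7.26 and 7.98 FPKM, with log2 ratios of 0.15 and 0.12 and a mean of 0.14 (SE 0.074, adjusted p = 0.394 by limma). Sirt6, a deacetylase of H3 in telomeric and promoter chromatin, did not share this, with log2 ratios of 0.067 and -0.063, and its ratio to Sirt7 was 1.50, 1.40, 1.63 and 1.42. Sirt2 stood at 7.97, 8.73, 7.76 and 7.98 FPKM. Of the mitochondrial sirtuins, Sirt4 was lower in both pairs, at 5.50, 5.13, 5.45 and 4.82 FPKM, with a mean log2 ratio of -0.12 (SE 0.078, adjusted p = 0.499 by limma). Sirt3 was lower in pair 1, at -0.21 on the log2 scale, and not in pair 2, at 0.059, and its mean of -0.073 became 0.22 with transcripts named by the first rules only. A transcript of 2967 bases at the locus it shares with Ric8a could not be given to either gene and held 11.0, 10.1, 10.4 and 10.6 FPKM. The level of Sirt3, listed at 10.5, 8.94, 9.46 and 9.89 FPKM, is therefore a lower limit and its place below Sirt1 is uncertain. Sirt5 ran from 2.98 to 3.19 FPKM, and a stretch of 467 bases of it matches Snhg14 with 96.4% identity. Snhg14 stood at 24.0, 25.1, 27.8 and 24.1 FPKM, so the level of Sirt5 is uncertain. Over the 17 erasers tested, 5 were higher and 5 lower in both pairs, against 28.4% and 34.1% of all genes tested. Their medians were 0.0038 (pair 1) and -0.012 (pair 2) on the log2 scale.

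No corepressor gene passed the test, and 5 of the 8 were lower in both pairs, against 34.1% of all genes tested. Ncor1, the scaffold that activates Hdac3, stood at 36.1, 29.4, 34.8 and 33.2 FPKM, both si-Atad2 libraries below both si-ctrl libraries. Its log2 ratios were -0.29 and -0.067, with a mean of -0.18 (SE 0.071, adjusted p = 0.228 by limma). The mean was -0.057 with the highest transcript, with naming by length alone and with the first naming rules only. At the locus it shares with Ttc19, 8 further transcripts could not be given to either gene and held 36.4 FPKM in si-ctrl 1. They did not move alike. A transcript of 3156 bases was at 10.7, 7.61, 9.87 and 8.84 FPKM. Another of 3436 bases was at 6.19, 6.55, 6.51 and 5.95 FPKM, and 1 of 491 bases at 9.64, 9.66, 10.8 and 10.6 FPKM. The level of Ncor1 too is thus a lower limit, and its ratio rests on the named transcripts only. Gm6743 matches Ncor1 over 556 bases with 94.8% identity. Ncor1 lies on the minus strand of chromosome 11 from 62316426 to 62458541.

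The Sin3 scaffolds were nearly equal in summed level, Sin3a at 56.6, 60.2, 56.4 and 57.4 FPKM and Sin3b at 53.0, 48.5, 50.0 and 50.1 FPKM. By these sums Sin3a was 1.07, 1.24, 1.13 and 1.15 times as high as Sin3b in the 4 libraries. Most of the Sin3b sum came from a transcript of 1026 bases, at 46.1, 42.2, 43.7 and 44.0 FPKM. Its 4117-base transcript held 5.90, 5.46, 5.42 and 5.33 FPKM, while the listed Sin3a transcripts had 4979 to 5210 bases. The near equality thus rested on the short Sin3b transcript. Rcor1, the CoREST scaffold that joins Hdac1 and Hdac2 to the demethylase Kdm1a, was lower in both pairs, at 10.3, 9.27, 10.3 and 9.72 FPKM. Its mean log2 ratio was -0.11 (SE 0.073, adjusted p = 0.501 by limma).

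Sap30, which bridges Sin3 and the deacetylase, was the member with the highest mean ratio and the lowest adjusted p. Its level was 52.9 FPKM in si-ctrl 1, 61.1 in si-Atad2 1, 53.6 in si-ctrl 2 and 60.3 in si-Atad2 2. The si-Atad2 libraries were close to each other and both above the si-ctrl libraries. The log2 ratios were 0.20 and 0.17, with a mean of 0.19 (SE 0.061, unadjusted p = 0.010, adjusted p = 0.139 by limma). Over the 14 alternatives that kept all 4 libraries and tested it, the adjusted p of Sap30 lay between 0.085 and 0.441. Sap30 lies on the minus strand of chromosome 8 from 57482707 to 57487860. The other subunits listed were lower in both pairs, but with the highest transcript in place of the sum the mean log2 ratio was 0.21 for Ing1 and 0.083 for Ing2, the latter also with naming by length alone. Sap18 stood at 3.79, 3.40, 3.89 and 3.39 FPKM, its only listed transcript being of 3458 bases, and Sap18b matches it over 780 bases with 100% identity, so that its level is uncertain. The PHD finger subunits Ing1 and Ing2, which read methylated H3 lysine 4, stood at 29.3, 27.4, 28.4 and 27.0 FPKM and at 8.70, 8.36, 9.19 and 8.33 FPKM. Ing1 was 3.36, 3.27, 3.09 and 3.24 times as high as Ing2.

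Over the 8 corepressor genes the log2 ratios had medians of -0.11 (pair 1) and -0.069 (pair 2), and 2 of them were higher in both pairs. Of all genes tested, 34.1% were lower and 28.4% higher in both pairs. The medians of writers minus erasers differed by 0.010 in pair 1 and 0.030 in pair 2, and those of corepressors minus erasers by -0.11 and -0.057. These are descriptions over 6 writers, 17 erasers and 8 corepressor genes, with no test. The middle 50% of all log2 ratios lay between -0.10 and 0.11 in pair 1 and between -0.085 and 0.060 in pair 2, and 16 and 22 of the 31 members fell within these limits. Among members, the median size of the difference was 0.096 in pair 1 and 0.059 in pair 2, while the libraries of a condition differed by 0.050 (si-ctrl) and 0.058 (si-Atad2). Over all genes tested each of these medians was larger, at 0.105 and 0.073 in the pairs and 0.058 and 0.081 within the conditions. For 7 members both si-Atad2 libraries lay above both si-ctrl libraries, against 22.3% of all genes tested, and for 9 both lay below, against 26.9%.

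**Figure D2:**
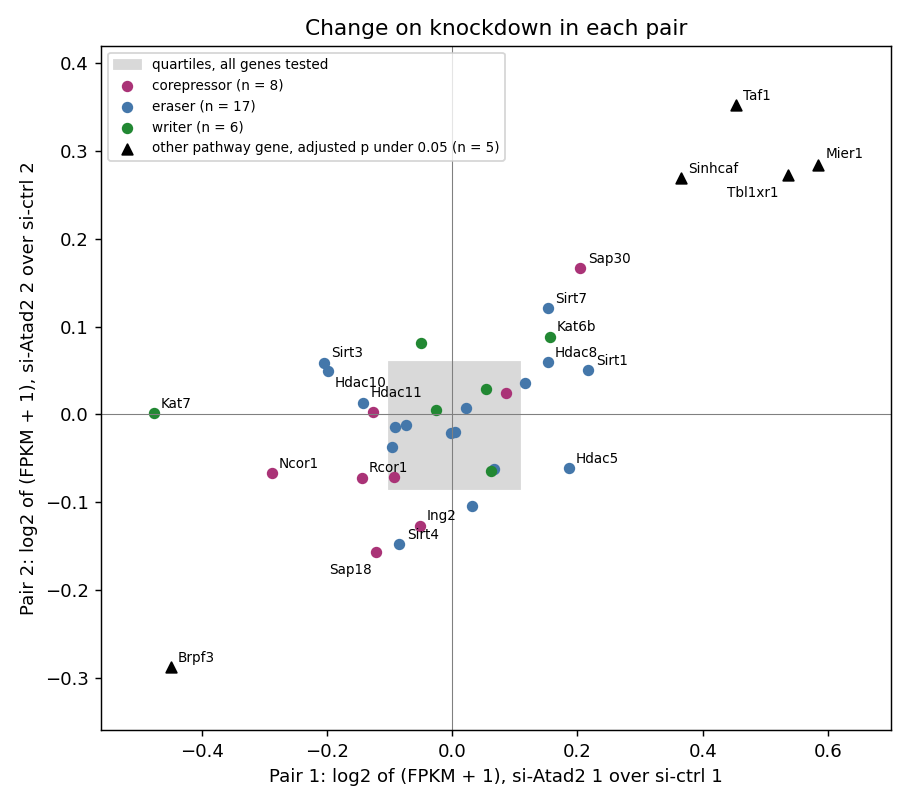
Log2 ratio of (FPKM + 1), si-Atad2 over si-ctrl, in pair 1 (x axis) and pair 2 (y axis) for the 31 members tested, coloured by class, and for the 5 other pathway genes with an adjusted p under 0.05 by limma (triangles). The grey box spans the quartiles of all 11079 genes tested; Kat7 lies at -0.48 in pair 1 and at 0.0016 in pair 2, Sap30 is the member farthest to the upper right, and the triangles lie farther from the middle in pair 2 than any member.

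The ratios of pair 1 followed GC content across genes (Spearman correlation -0.28), those of pair 2 hardly (0.080), and the si-ctrl libraries differed from each other along it (-0.55). With this trend removed in the paired fit, again 0 members passed, and the median log2 ratio was 0.0082 for writers, -0.014 for erasers and -0.096 for corepressors.

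For Sirt5 and Hdac4 the sum over transcripts varied less than the single transcripts did, whereas for Kat7 sum and transcripts moved alike in pair 1. Sirt5 has 2 listed transcripts that differ by few bases in length. The 1398-base transcript was listed at 1.22, 1.62, 3.04 and 0.50 FPKM and the 1359-base transcript at 1.97, 1.36, 0.0018 and 2.52 FPKM, while their sum was 3.19, 2.98, 3.05 and 3.01 FPKM. In pair 2 the log2 ratio was -1.43 for the former, 1.81 for the latter and -0.012 for the gene. Hdac4 was divided in a like manner, its 4130-base transcript at 2.13, 0.54, 1.66 and 2.71 FPKM and its 4046-base transcript at 3.93, 5.18, 4.13 and 2.79 FPKM. In both genes the latter transcript carried the authors' status for too few data. Of the Hdac5 transcripts, the highest, of 3795 bases, went from 9.18 to 8.78 FPKM in pair 1 and from 7.64 to 6.69 FPKM in pair 2, with log2 ratios of -0.058 and -0.17, while that of 3907 bases, at up to 1.11 FPKM, had 0.56 and 0.37. Where the transcripts without status OK were left out, Sirt5 had a mean log2 ratio of -0.60 (adjusted p = 0.270 by limma).

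**Figure D3:**
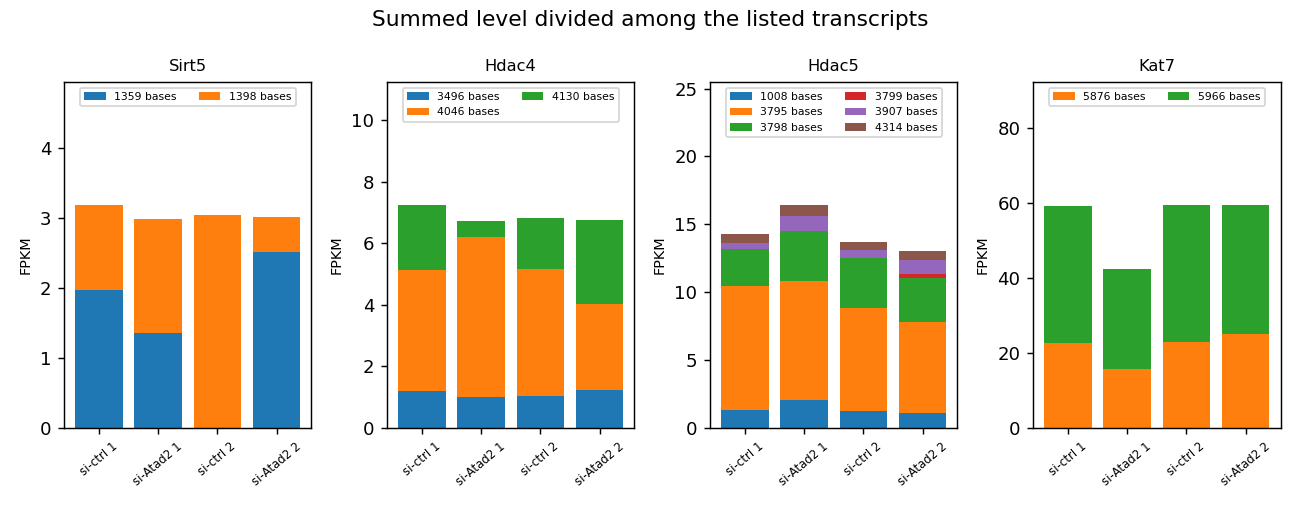
Level of each listed transcript (colours, by length in bases) stacked to the summed level of the gene, in FPKM, for Sirt5, Hdac4, Hdac5 and Kat7 in the 4 libraries. The division between transcripts of Sirt5 and Hdac4 shifts from library to library while the column height stays within 2.98 to 3.19 and 6.74 to 7.25 FPKM, whereas both colours of Kat7 shrink in si-Atad2 1.

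Around the members stand the other writers and the subunits that place writers and erasers on chromatin. Of 72 such genes 66 were tested, of which 4 rose and 1 fell after knockdown with an adjusted p under 0.05 by limma. Of all 11079 genes tested 278 passed (2.51%), 207 higher and 71 lower. The pathway list was chosen with earlier results of these data known, and its share was not tested. Taf1, the largest TFIID subunit, which has bromodomains and reported acetyltransferase activity, rose from 18.5 to 25.7 FPKM in pair 1 and from 18.1 to 23.4 FPKM in pair 2. Its mean log2 ratio was 0.40 (SE 0.068, adjusted p = 0.0063 by limma). Of the other writers, Gtf3c4 had a mean log2 ratio of 0.15, and Kat2a (Gcn5, the SAGA writer) and Kat14 of -0.19 and -0.13, none past the threshold.

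Among deacetylase complex subunits, 3 of 27 tested rose, against 207 of all 11079 genes. Mier1, which recruits Hdac1 and Hdac2 through its ELM2 and SANT domains, went from 11.0 to 16.9 FPKM and from 12.2 to 15.0 FPKM (mean log2 ratio 0.43, SE 0.081, adjusted p = 0.013 by limma). Tbl1xr1, a WD40 subunit of the Ncor1 complex, went from 6.54 to 9.93 FPKM and from 7.08 to 8.77 FPKM (0.40, SE 0.083, adjusted p = 0.021 by limma). Sinhcaf, a Sin3 complex subunit, went from 13.2 to 17.3 FPKM and from 14.0 to 17.1 FPKM (0.32, SE 0.070, adjusted p = 0.031 by limma). With the highest transcript in place of the sum, the mean log2 ratio was 0.074 for Tbl1xr1, 0.23 for Mier1 and 0.34 for Sinhcaf. Lowest in this group were Gatad2a, a NuRD subunit, at -0.25, and Rcor2, the CoREST scaffold that was highest in these cells at 112 and 108 FPKM in si-ctrl, at -0.22, and neither passed, with adjusted p of 0.099 and 0.094 by limma.

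Among writer complex subunits, 1 of 29 tested fell, against 71 of all 11079 genes. Brpf3, the scaffold that directs Kat7 to H3 lysine 14, went from 16.3 to 11.6 FPKM and from 15.9 to 12.8 FPKM, with log2 ratios of -0.45 and -0.29 and a mean of -0.37 (SE 0.073, adjusted p = 0.017 by limma). Jade2, another scaffold of Kat7, had a mean log2 ratio of -0.30 (adjusted p = 0.073 by limma). Trrap, the scaffold that Kat5 and Kat2a complexes share, and Epc2 had the highest, 0.26 and 0.21 (adjusted p = 0.066 and 0.189 by limma).

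The pathway calls, though not the size of the ratios, were lost when a si-ctrl library was left out. Without si-ctrl 1 the log2 ratio was 0.42 for Taf1, 0.36 for Mier1 and -0.35 for Brpf3, without si-ctrl 2 it was 0.39, 0.50 and -0.38, and 0 pathway genes passed in either case; without si-Atad2 1 there were 6, and without si-Atad2 2 there were 17. No pathway gene passed when the filter on low values was dropped, when the highest transcript stood for the gene or when transcripts were named by length alone, and 2 passed under median of ratios. With the pairs crossed Mier1 alone passed, the adjusted p by limma of the other 4 lying between 0.055 and 0.084. With transcripts of all lengths none of the 5 passed (0.089 to 0.174), while Kansl2, a subunit of a Kat8 complex, did. Over transcripts of at least 200 bases, as in the main fit, Kansl2 had a mean log2 ratio of -0.10 (adjusted p = 0.533 by limma).

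**Figure D4:**
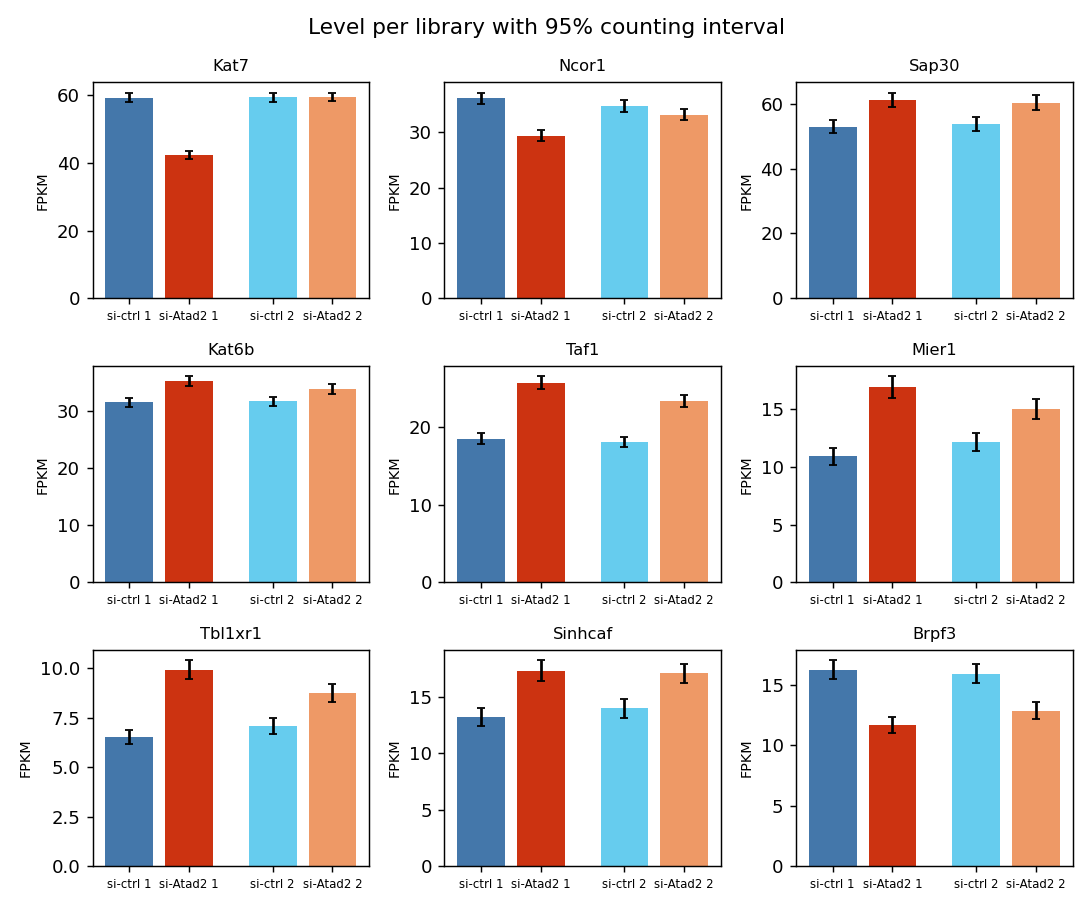
Level in FPKM (axis from 0) of the members Kat7, Ncor1, Sap30 and Kat6b and of Taf1, Mier1, Tbl1xr1, Sinhcaf and Brpf3 in each library, pair 1 on the left and pair 2 on the right of each panel; bars on the columns are the half-width of the 95% interval for counting error. Sap30, Taf1, Mier1, Tbl1xr1 and Sinhcaf are higher and Brpf3 lower in si-Atad2 of both pairs, while Kat7 is lower in pair 1 only, at 42.4 FPKM.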

How the data were processed

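RNA of 4 libraries of 46C ES cells (2 si-ctrl, 2 si-Atad2; paired ends of 50 cycles) was analysed from the tables the authors deposited. Per the file headers, the authors' FPKM values are Cuffdiff estimates per transcript with 95% intervals, from 1 run per pair; the submitters' processing notes name TopHat, Cuffdiff and mm9, the supplement Bowtie, and versions are not given in the sources used here. The loci of the tables match GRCm38, not mm9. The authors' tables of fold changes and p-values were not used.

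Names from GENCODE release M21 of GRCm38 were sought for all 59120 transcripts, of which 52488 had at least 200 bases. The rules were a length within 3 bases inside the locus (14537) or the only coding gene with at least 50% of a transcript there (29770). Then came a length within 10 bases (1081) and a length over 10% too long for the other genes (1936). The latter 2 rules were added after seeing the data, and 11796 transcripts stayed without a name. Among transcripts of at least 200 bases, the named ones held 90.9% of the summed FPKM. The FPKM of these were summed per gene, whatever the status. Genes with a mean of at least 1 FPKM were tested with limma 3.58.1 (R 4.3.3) on the log2 ratios of (FPKM + 1) within the pairs, with eBayes trend and Benjamini-Hochberg adjustment over all 11079 genes, threshold 0.05. The replicate number is thus a block, which comes from the authors' runs. As a check, the departures of same-numbered libraries from the mean of their condition were correlated across genes (Pearson -0.036). The values themselves thus showed next to no shared departure within a pair. The fit was also run on simulated libraries, in which the changed genes differed by more than any member did here. That run therefore gives no measure of how often changes of the members' size would be found. Half-widths of summed levels are root sums of squares of the authors', with transcripts taken as independent. Near copies were searched with BLAST 2.17.0, and figures drawn with matplotlib 3.10.9.

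Members and lists were chosen with earlier results of these data known. All 32 members, Atad2, the markers, each pathway gene past the threshold and, in each direction, the 2 tested genes of each part of the pathway list with the largest mean ratio were named. Rbbp7, Brms1, Tada1 and Msl2 had no named transcript, and Supt7l and Msl1 were under 1 FPKM. ChIP-seq and repeats were not analysed here. Alternatives were pseudocounts of 0.1 and 5 FPKM, TPM, median of ratios, transcripts of all lengths, a minimum of 5 FPKM or no filter, no block, crossed pairs, no eBayes trend, removal of the GC trend, the highest transcript per gene, naming by length alone and leaving out each library. Naming by the first 2 rules only and transcripts with status OK only were added after seeing the data.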

Additional observations from a re-analysis of the deposited data

How the results depend on the processing

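No member passed the threshold under the 15 alternatives that kept all 4 libraries, and 0 to 5 did with a library left out. Of 562 member values under alternatives, 31 had the other sign than the main value, none of them past the threshold. Removing the GC trend left 279 genes and 6 pathway genes past the threshold in place of 278 and 5. The paired fit is the main one. Without the replicate block 170 genes, 5 pathway genes and 0 members passed, each of the 5 pathway genes called with it among them. With the pairs crossed 89, 1 and 0 passed. Under median of ratios 162 genes and 2 pathway genes passed, with transcripts of all lengths 33 and 1, with no filter on low values 0 and 0 (1946 genes at an unadjusted p under 0.05 by limma), with the highest transcript per gene 100 and 0, and with naming by length alone 33 and 0. With a library left out, 11 to 2117 genes and 0 to 17 pathway genes passed.

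The median log2 ratio of corepressors was -0.068 with a pseudocount of 5 FPKM, -0.056 under TPM, -0.015 with the highest transcript and -0.057 with naming by length alone. That of erasers was 0.010, -0.045 and -0.055 under the last 3 of these, and that of writers 0.043 under TPM. Writers minus erasers came to 0.053 with the highest transcript and 0.071 with naming by length alone. With a library left out, these medians lay between -0.10 and -0.082 for corepressors, -0.033 and 0.0050 for erasers and -0.011 and 0.015 for writers, and writers minus erasers between -0.016 and 0.038. The cause was not tested. Counting error limits what could be seen for the least expressed members, with half-widths of up to 32.5% for Kat8 and 22.2% for Hdac9.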
